A study of Mus musculus with 4 samples.

Results

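The subunits of the oxidative phosphorylation system were examined in E0771, a mouse breast carcinoma cell line, after exposure to IL-26, a human cytokine of the IL-10 family whose gene mice lack. The members were chosen by gene symbol alone, as every probe whose symbol begins with Nduf and 1 of the letters a, b, c, s or v before a digit (complex I), is Sdha to Sdhd (complex II), or begins with Uqcr (complex III), Cox4 to Cox8 (complex IV) or Atp5 (ATP synthase). The symbols left out a few subunits, such as Ndufab1 and Cyc1, and took in 4 genes that are not regular subunits: Uqcrh-ps1, Ndufa11b, Ndufa4l2 and Cox7a2l. This gave 84 of 19316 named genes, measured by 89 of 23473 probes on the chip. The rule uses symbols and no measured value, although it was drawn up with earlier results of these data known.

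There were 4 arrays, 1 for each group. Cells were given IL-26 at 30 ng/ml or a control vehicle, each for 24 h or for 6 h. All groups were the same unmodified cell line in culture, and the cytokine was the recombinant human protein. Total RNA was amplified, labelled with Cy5 and hybridised to TORAY 3D-Gene mouse oligo chips in 1 colour. Because each group was 1 array, differences between cultures, hybridisations and groups cannot be told apart. The p-values below come from an additive limma model of time and treatment, with 1 residual degree of freedom and a spread borrowed from all 18372 detected genes. They measure the scatter around that model and not the scatter between repeated cultures.

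Oxidative phosphorylation is carried out by 5 protein complexes of the inner mitochondrial membrane. Complexes I and II pass electrons from NADH and succinate to ubiquinone, complex III passes them on to cytochrome c, and complex IV gives them to oxygen. Complexes I, III and IV pump protons, and complex V, the ATP synthase, uses the returning protons to make ATP. All the members are encoded in the nucleus; the subunits encoded by mitochondrial DNA had 0 probes on the chip. Carcinoma cells in culture use both glycolysis and this system, in proportions that vary between lines.

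Of the 84 genes, 83 were detected, each on all 4 arrays, which means that the spot exceeded the blanks' mean by over 2 SD. The remaining gene, Cox8c, a form of a complex IV subunit known from testis, stayed below that limit on every array. Of the detected members, 76 lay in the brighter part of the detected genes, above their median level. The other 7 were Ndufc1, Ndufa3, Uqcrq, Cox6b2, Cox7b2, Cox8b and Cox6a2. The member spots had a median intensity of 1296 on the IL-26 24 h array, 1410 on the vehicle 24 h array, 1449 on the IL-26 6 h array and 1557 on the vehicle 6 h array, against medians of 78.0, 84.4, 78.9 and 82.0 over all gene spots in the same order. No member spot was saturated. Levels of different probes were not compared, since a probe's brightness also depends on its sequence.

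Among markers of cell type, Krt8 and Cldn4 were the 2 of 9 epithelial markers in the brighter part of the detected genes, while Epcam, Cdh1 and Krt18 lay close to the limit on every array. Of 9 leukocyte markers, 3 lay in the brighter part (Cd68, Csf1r and Lyz2), as did 1 of 9 germ cell markers (Ddx4) and 0 of 7 endothelial markers. The 6 adipocyte markers had a summed level of 652 with IL-26 and 645 in vehicle at 24 h, against 444 with IL-26 and 442 in vehicle at 6 h, mostly through Fabp4; Adipoq and Lep did not pass the limit on any array. Summed striated muscle markers lay between 645 and 657 on all 4 arrays. Each level includes a constant offset added in the background correction, so a gene without signal also adds to these sums. Myh1, a muscle marker below the limit on every array, still read between 5.66 and 5.67 (log2 levels). Of the 11 muscle markers, 1 lay in the brighter part, so their flat sum cannot show whether muscle RNA changed. The offset also makes the relative difference between the adipocyte sums smaller. In bulk RNA of this kind, fewer cells of a type and less RNA per cell cannot be told apart.

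The first comparison asked how the subunits differed between 24 h and 6 h in culture, averaged over treatments. Cox7a2l and Uqcrh were the members with the greatest rise at 24 h, 1.61-fold and 1.59-fold, and the other rises were at most 1.36-fold. In all, 14 of 83 members rose (16.9%, against 14.5% of all detected genes), 7 fell (8.43%, against 14.4%), and 62 did not pass the test (limma, Benjamini-Hochberg adjusted p under 0.05 over all detected genes). In either direction that was 25.3% of members, against 28.8% of all detected genes. The share that rose was thus near that of all genes, and the share that fell was below it. Most members are bright, and bright genes passed more often: of the 76 brighter members, 18.4% rose and 6.58% fell (25% either way), against 21% and 22.1% of all brighter genes (43.1%). Without the 4 genes that are not regular subunits, 12 of 79 rose and 6 fell. With median scaling of the arrays in place of quantile normalization, 10 members rose (12%, against 21% of all genes) and 11 fell (13.3%, against 13.3%). The lean towards higher levels thus depended on the scaling. With the authors' deposited values, 19 rose (22.9%, against 15.5%) and 8 fell (9.64%, against 16.1%). When the spread was not modelled on intensity, 17 rose (20.5%, against 9.58%) and 4 fell (4.82%, against 9.19%). Without the adjustment, 36 members had p under 0.05 (43.4%, against 37% of all genes); the share of brighter genes alone was not counted.

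The differences were small, and their medians lay slightly above those of all genes. The median difference, 24 h minus 6 h on the log2 scale, was 0.0794 in cells given IL-26 and 0.0435 in vehicle, against -0.0015 and -0.0052 over all detected genes. These comparisons share no array. The medians were 0.0637 and 0.0556 with median scaling, where all genes stood at 0.0228 and 0.0266. With local background subtraction the median in vehicle turned to -0.0262, where all genes stood at -0.0273. Both 24 h arrays lay above both 6 h arrays for 41 members (49.4%, against 29.7% of all detected genes) and below both for 26 (31.3%, against 32.6%). Brighter genes are the closer comparison, but for them only a looser measure was counted, the direction within each treatment. Among the 76 brighter members, 24 h stood above 6 h within both treatments for 41 and below within both for 24. Among all 9186 brighter genes these counts were 3504 and 3954. A difference of at least 1.5-fold was seen for 2 members in cells given IL-26 (2.41%, against 5.11% of all genes) and for 1 member in vehicle (1.2%, against 4.59%). Across the 83 members, the time differences in IL-26 and in vehicle were correlated with r = 0.71 (Pearson) and rho = 0.75 (Spearman), given as a description since genes on the same arrays are not independent.

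**Figure D1:**
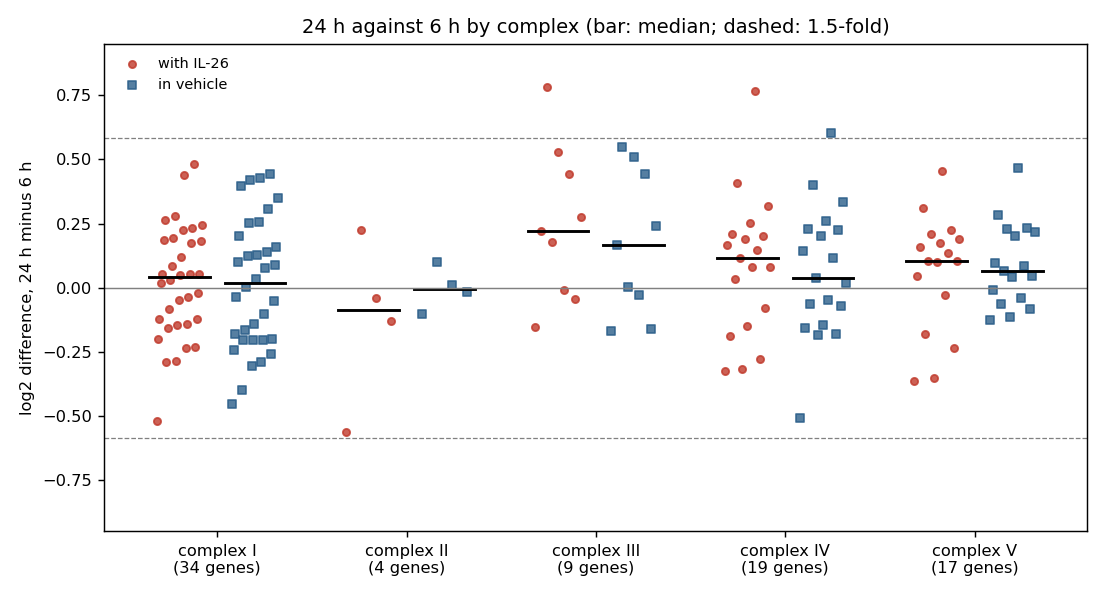
Difference between 24 h and 6 h (log2, vertical axis) for each detected member, by complex (horizontal axis), in cells given IL-26 (red circles) and in vehicle (blue squares); each point is 1 gene, black bars are medians and dashed lines mark 1.5-fold. Medians lie above 0 in every complex except II, and complex III has the highest medians (0.22 with IL-26 and 0.17 in vehicle).

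By complex, 4 of 9 genes of complex III rose (44.4%, against 14.5% of all detected genes and 21% of the brighter ones) and 0 fell (against 14.4% and 22.1%), with a median effect of time of 0.23. In complex I, 5 of 34 rose (14.7%) and 3 fell (8.82%), with a median of 0.05. In complex IV, 2 of 19 rose (10.5%) and 3 fell (15.8%), with a median of 0.10. In complex V, 3 of 17 rose (17.6%) and 0 fell, with a median of 0.09. Complex II had 4 genes, of which 0 rose and 1 fell (median -0.01). The shares that rose in complexes I and V were near that of all genes. Whether the complexes differed from each other was not tested.

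Complex I accepts electrons from NADH through a peripheral arm built on a few flavin- and iron-sulfur-bearing core subunits. Ndufv1, which holds the NADH binding site and the flavin, read 10.01 with IL-26 and 10.06 in vehicle at 24 h, against 9.57 with IL-26 and 9.67 in vehicle at 6 h (log2 levels). Both 24 h arrays were above both 6 h arrays, by 0.42 ± 0.11 (log2 effect ± SE, adjusted p = 0.00224). Ndufs1, the largest iron-sulfur subunit of the same module, read 8.89 with IL-26 and 8.62 in vehicle at 24 h, against 8.40 with IL-26 and 8.32 in vehicle at 6 h, and also rose, by 0.40 ± 0.10 (adjusted p = 0.00132).

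Ndufv2, the third core subunit of that module and an iron-sulfur protein, went the other way. Its level was 11.39 with IL-26 and 11.26 in vehicle at 24 h, against 11.67 with IL-26 and 11.66 in vehicle at 6 h, so the arrays of the different times did not overlap (-0.34 ± 0.11, adjusted p = 0.0116). In the main processing, the greatest fall of all members was in Ndufs4, an accessory subunit that joins the NADH-oxidising module to the rest of the arm. It read 9.65 with IL-26 and 9.62 in vehicle at 24 h, against 10.17 with IL-26 and 9.92 in vehicle at 6 h (-0.41 ± 0.11, adjusted p = 0.00274). Ndufa5, an accessory subunit of the peripheral arm, fell by 0.30 on the log2 scale (adjusted p = 0.0365), with a difference of -0.14 with IL-26 and -0.46 in vehicle.

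Among the other core subunits, Ndufs7 and Ndufs8, which carry the iron-sulfur centres near the ubiquinone site, and Ndufs3 did not pass, with effects of 0.22, 0.07 and 0.11. Of the remaining accessory subunits, Ndufc2 rose by 0.32, Ndufv3 by 0.30 and Ndufs6 by 0.29 (adjusted p = 0.0209, 0.0339 and 0.0416). Ndufv3 and Ndufs6 are named here after their values were seen. The peripheral module that oxidises NADH therefore held members on both sides, with Ndufv1, Ndufs1, Ndufs6 and Ndufv3 higher and Ndufv2 and Ndufs4 lower at 24 h. Ndufa13 and Ndufb5 each had 2 probes; for Ndufa13, the time difference with IL-26 was -0.08 by 1 probe and 0.12 by the other.

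Complex II, succinate dehydrogenase, is also an enzyme of the tricarboxylic acid cycle. Sdhd, a membrane anchor that helps form the ubiquinone site, read 10.72 with IL-26 and 11.13 in vehicle at 24 h, against 11.28 with IL-26 and 11.24 in vehicle at 6 h. The IL-26 24 h array stood below the other arrays, and the call for time (-0.33 ± 0.11, adjusted p = 0.0205) rested mostly on it: the difference was -0.56 with IL-26 and -0.10 in vehicle. The call was lost when the spread was not modelled on intensity (adjusted p = 0.188) and with undetected genes kept (adjusted p = 0.0728). The flavoprotein Sdha, the iron-sulfur subunit Sdhb and the other anchor Sdhc did not pass, with effects of 0.03, 0.10 and -0.06.

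Complex III passes electrons from ubiquinol to cytochrome c. Uqcrh, the hinge protein at the docking site of cytochrome c, read 9.96 with IL-26 and 9.86 in vehicle at 24 h, against 9.17 with IL-26 and 9.31 in vehicle at 6 h. It rose by 0.67 ± 0.11 (adjusted p = 1.45e-06), and its difference in cells given IL-26 reached 1.72-fold. Uqcr10, a small subunit beside cytochrome c1, read 11.62 with IL-26 and 11.63 in vehicle at 24 h, against 11.18 with IL-26 and 11.19 in vehicle at 6 h. The arrays of each time were almost equal for this gene, and the rise was 0.44 ± 0.11 (adjusted p = 0.000934).

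Uqcr11, another small subunit, rose by 0.35 ± 0.11 (adjusted p = 0.0136); it is named after its values were seen. Uqcrh-ps1, annotated as a pseudogene of Uqcrh on another chromosome, also rose, by 0.39 ± 0.11 (adjusted p = 0.00451). As a copy of Uqcrh it may share transcripts with the Uqcrh probe, so the rise of these 2 probes may not be separate; without the pseudogene, 3 of the 8 other genes of complex III rose. The core proteins Uqcrc1 and Uqcrc2 and the Rieske iron-sulfur protein Uqcrfs1 did not pass, with effects of -0.11, 0.23 and 0.07, nor did Uqcrb (-0.16). For Uqcrc2, the value averages 2 probes. The brighter one differed in time by 0.28 with IL-26 and 0.29 in vehicle, the dim one by 0.16 and 0.19. For Uqcrq, at effect -0.0031, the spot lay close to the blanks on every array, so the probe carried little signal.

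**Figure D2:**
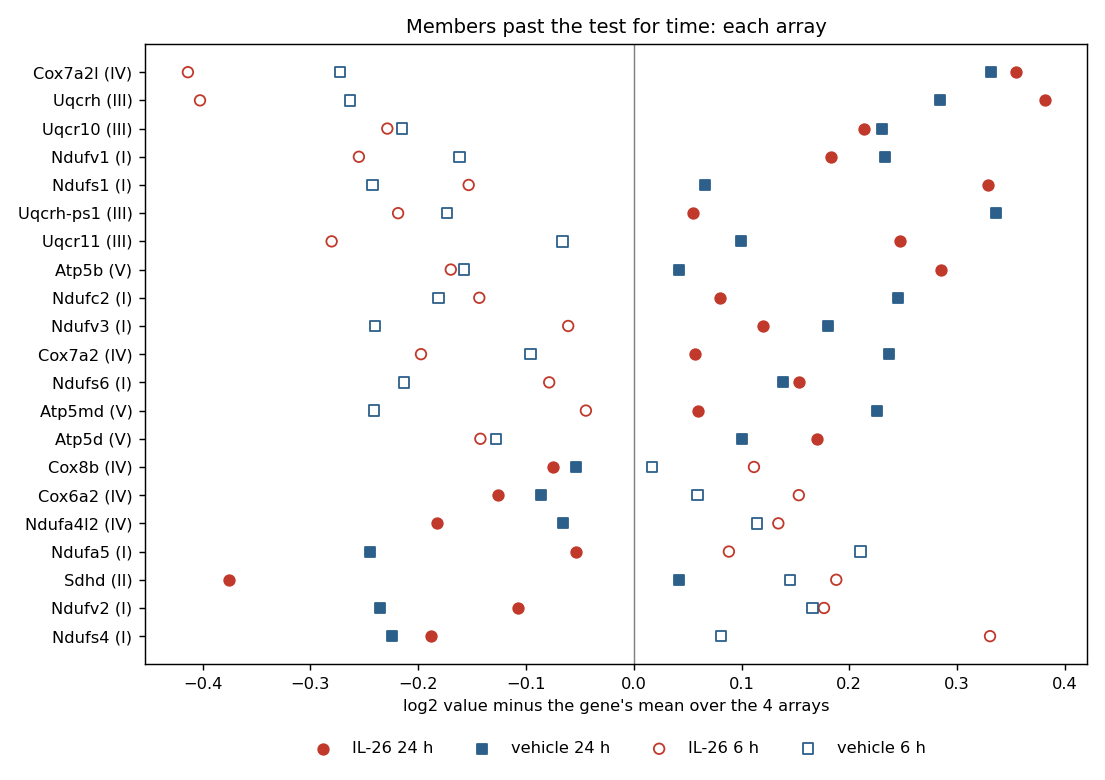
Values of the 21 members that passed the test for time: each row is a gene with its complex, each symbol 1 array (filled for 24 h, open for 6 h; red circles for IL-26, blue squares for vehicle), and the horizontal axis is the log2 value minus the gene's mean over the 4 arrays. In all 21 rows the filled symbols lie on one side of the open ones, and the gap is widest for Cox7a2l and Uqcrh and narrow for Sdhd in vehicle.

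Complex IV has several subunits with alternative forms, and some forms are known from muscle, lung or testis. Cox7a2l, which is related in sequence to Cox7a and helps tie complex III to complex IV in supercomplexes rather than being a regular subunit, read 10.995 with IL-26 and 10.97 in vehicle at 24 h, against 10.23 with IL-26 and 10.37 in vehicle at 6 h. It was the member with the greatest rise, 0.69 ± 0.11 (adjusted p = 1.10e-06), at 1.70-fold with IL-26 and 1.52-fold in vehicle. Cox7a2, the widely expressed form of that subunit, rose by 0.29 ± 0.11 (adjusted p = 0.0353). The core-associated subunits Cox4i1, Cox5a and Cox5b, at 0.10, 0.12 and 0.28, did not pass, nor did Cox7c at -0.24.

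The members that fell in this complex were minor forms. Ndufa4l2, a relative of the complex IV subunit Ndufa4 known as a hypoxia-induced gene, fell by 0.25 on the log2 scale (adjusted p = 0.0131), while Ndufa4 itself stood at -0.17 and did not pass. Cox6a2 and Cox8b, the forms known from striated muscle, were dim: Cox6a2 read 6.02 with IL-26 and 6.06 in vehicle at 24 h, against 6.29 with IL-26 and 6.20 in vehicle at 6 h. Their effects were -0.21 ± 0.04 and -0.13 ± 0.04 (± SE, adjusted p = 6.97e-05 and 0.00797). Both calls were lost when the spread was not modelled on intensity, with the same effects and errors of 0.0512 and 0.0481 (adjusted p = 0.0761 and 0.179). The size of these falls depended on the processing. With the authors' deposited values the effects were -0.8304 for Cox6a2 and -0.6463 for Cox8b, both beyond the -0.4071 of Ndufs4. The widely expressed counterparts of Cox6a2 and Cox8b, Cox6a1 and Cox8a, had effects of 0.15 and 0.21 and did not pass. The remaining minor forms Cox4i2, Cox6b2 and Cox7b2, at 0.05, 0.06 and -0.07, did not pass either, and neither did Cox6b1 (0.21) or Cox7b (0.26).

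The ATP synthase has a catalytic head, a central stalk that turns with a membrane ring, and a peripheral stalk. Atp5b, the catalytic beta subunit, read 13.84 with IL-26 and 13.60 in vehicle at 24 h, against 13.39 with IL-26 and 13.40 in vehicle at 6 h, and rose by 0.33 ± 0.09 (adjusted p = 0.00315). Atp5d of the central stalk rose by 0.27 ± 0.11, and Atp5md, a small membrane subunit also known as DAPIT, by 0.29 ± 0.11 (adjusted p = 0.0475 and 0.0497, both just under the threshold). Atp5a1, the alpha subunit of the head, and Atp5c1, the gamma subunit of the central stalk, stood at 0.22 and -0.24 and did not pass. Atp5g1, Atp5g2 and Atp5g3, which encode the same ring protein, had effects of -0.03, 0.14 and 0.17, and did not pass, nor did the peripheral stalk subunits Atp5j (-0.20) and Atp5h (-0.16).

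All 21 calls for time were lost when each spot's local background was subtracted by normexp in place of the blank-spot correction, a setting under which 0 of all detected genes passed for time. Of the 21, Cox7a2l, Uqcrh, Uqcr10, Uqcrh-ps1, Ndufv1, Ndufs1, Ndufs4 and Ndufv2 kept their calls in each of the other alternatives that tested them.

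Promoters were read because many of these genes are known targets of shared factors: NRF1, the ETS factor GABPA and YY1. For 67 of the 84 members RefSeq (GRCm38.p6) gave a window of 300 bases, with 250 before and 50 after the start of the gene. Motifs were searched on both strands, chosen after the expression values were known. The NRF1 motif, GCGCA and GCGC with any single base between them, was in 17 members (25.4%, against 5.19% of 27025 genes with a window), CCGGAAG, the ETS motif, in 16 (23.9%, against 9.93%), and AAGATGGCG, the YY1 motif, in 7 (10.4%, against 1.64%). Among protein-coding genes alone the shares were 7.17%, 12.9% and 2.14%. Any of the motifs stood in 50.7% of the members, against 15.1% of all genes with a window and 20% of protein-coding genes. By call, it was 4 of 12 members that rose (33.3%), 3 of 5 that fell (60%) and 27 of 50 that did not pass (54%). A match is a description of the letters and not of binding. No test was run on these shares.

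The 100 bases before the start are shown for the members with the greatest rises, for Uqcr11 and Ndufs6, which rose and hold a motif, and for Sdhd, which fell and holds motifs of 2 kinds. Each is printed 5′ to 3′ on the strand of the gene, with motif matches of either strand in capitals. All lie on the minus strand of GRCm38.p6, Cox7a2l at chr17:83514334-83514433, Uqcrh at chr4:116075071-116075170, Uqcr11 at chr10:80406822-80406921, Ndufs6 at chr13:73328483-73328582 and Sdhd at chr9:50603850-50603949.
Cox7a2l: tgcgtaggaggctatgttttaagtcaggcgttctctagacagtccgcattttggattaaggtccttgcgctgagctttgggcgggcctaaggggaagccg
Uqcrh: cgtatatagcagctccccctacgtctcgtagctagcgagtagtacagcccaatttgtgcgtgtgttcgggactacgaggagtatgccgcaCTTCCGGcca
Uqcr11: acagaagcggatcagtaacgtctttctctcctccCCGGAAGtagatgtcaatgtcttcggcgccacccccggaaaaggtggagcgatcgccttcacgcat
Ndufs6: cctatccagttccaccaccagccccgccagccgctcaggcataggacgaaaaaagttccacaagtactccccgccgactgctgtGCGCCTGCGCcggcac
Sdhd: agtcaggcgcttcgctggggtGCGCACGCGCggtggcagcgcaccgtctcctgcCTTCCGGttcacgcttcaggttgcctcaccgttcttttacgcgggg
In these windows Uqcrh and Uqcr11 hold the ETS motif, Ndufs6 the NRF1 motif and Sdhd both, while Cox7a2l holds none of the motifs searched.

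The next comparison, and the one the study was built on, was IL-26 against vehicle. Cox7a1, the form of a complex IV subunit known from heart and skeletal muscle, was the single member that passed, and it fell. Averaged over times, 0 of 83 members rose (0.169% of all detected genes did) and 1 fell (1.2%, against 0.321%). With local background subtraction, 9 members passed as higher (10.8%, against 1.39% of all genes) and 0 as lower. The median at 6 h then became 0.2011, against -0.0762 over all genes. On the vehicle 6 h array, the local background exceeded the spot at some members, such as Cox6c (4452 against 3846). It lay below the spot at others, such as Ndufs3 (224 against 1163). On the IL-26 6 h array the values were 1094 against 3081 for Cox6c and 389 against 1127 for Ndufs3. The part of this in these calls was not tested. In the main processing, 2 members had unadjusted p under 0.05 (2.41%, against 4.77% of all genes): Cox7a1 and the dim complex I subunit Ndufa3. The median difference of the members was 0.0007 at 24 h and -0.0079 at 6 h, against 0.006 and -0.0007 over all detected genes. Both IL-26 arrays lay above both vehicle arrays for 3 members (3.61%, against 9.42% of all genes) and below for 7 (8.43%, against 8.3%).

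At 24 h, 0 members reached 1.5-fold (0.049% of all genes did), and the differences ran from -0.42 for Sdhd to 0.26 for Ndufs1. After Sdhd, the lowest were Atp5j at -0.29, a peripheral stalk subunit of ATP synthase, and Uqcrh-ps1 at -0.28, and the highest after Ndufs1 were Atp5b at 0.24 and Ndufa5 at 0.19. At 6 h, 1 member reached 1.5-fold (1.2%, against 0.0816%), and it was Cox7a1. The other extremes at 6 h were Ndufa7 at -0.23 and Cox6c at -0.22, and Ndufb10 at 0.30, Ndufs4 at 0.25 and Sdhc at 0.22. None of these except Cox7a1 passed the test averaged over times. Each difference is between 2 single arrays and carries no p-value.

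**Figure D3:**
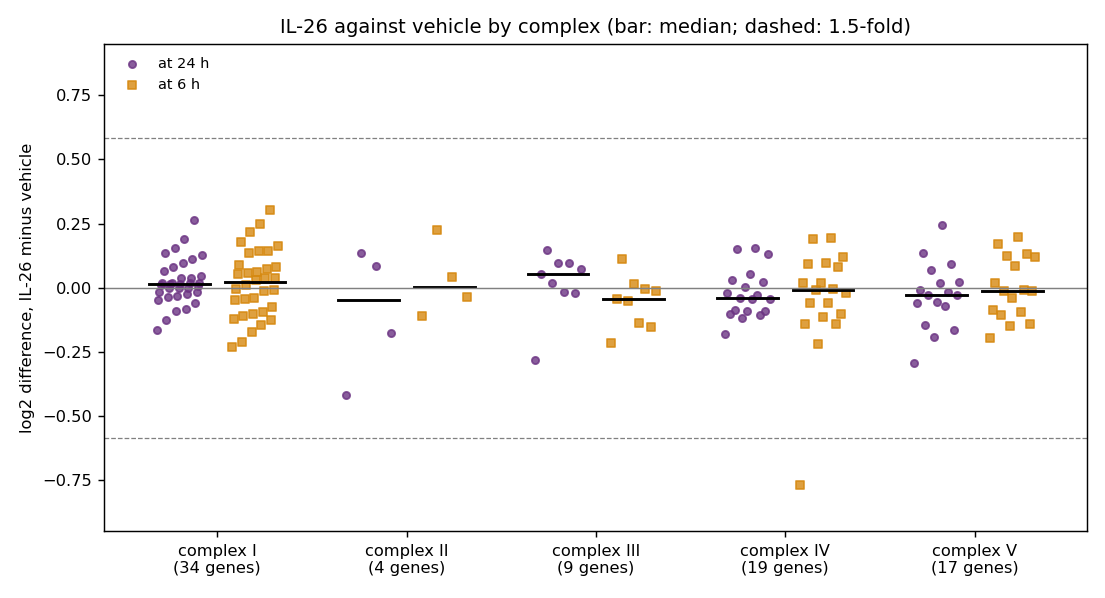
Difference between IL-26 and vehicle (log2, vertical axis) for each detected member, by complex (horizontal axis), at 24 h (purple circles) and 6 h (orange squares); each point is 1 gene, black bars are medians and dashed lines mark 1.5-fold. Medians lie near 0 in every complex, and the single point past 1.5-fold is Cox7a1 at 6 h, at -0.77.

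Cox7a1 read 6.34 with IL-26 and 6.43 in vehicle at 24 h, and 6.17 with IL-26 and 6.94 in vehicle at 6 h. The vehicle 6 h array stood above the other arrays, which lay close together. The difference was -0.09 at 24 h and -0.77 at 6 h (1.70-fold), and the effect averaged over times was -0.43 ± 0.07 (adjusted p = 5.14e-05). Its spot intensity was 80.1 with IL-26 and 92.2 in vehicle at 24 h, and 72.4 with IL-26 and 128 in vehicle at 6 h, in arbitrary units, and the local background around it was 67.4, 76.9, 54.0 and 97.1 in the same order.

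The 4 other spots within 2 columns in the same row were likewise highest on the vehicle 6 h array. Bcl2a1a, in the next column, read 79.9 with IL-26 and 93.6 in vehicle at 24 h, and 94.8 with IL-26 and 220 in vehicle at 6 h. Rps2, a ribosomal protein gene 2 columns away, was one of the very bright spots, and the local background around it was 16659 with IL-26 and 18790 in vehicle at 24 h, and 10982 with IL-26 and 44456 in vehicle at 6 h. Thus the array on which Cox7a1 was high was also the one on which the light around its bright neighbour was strongest, and the part of this in the result was not tested. The call for Cox7a1 was lost with local background subtraction (adjusted p = 0.28), with undetected genes kept (adjusted p = 0.848) and when the spread was not modelled on intensity (adjusted p = 0.999). Over the alternatives that tested it, the adjusted p ran between 2.52e-11 and 0.999.

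**Figure D4:**
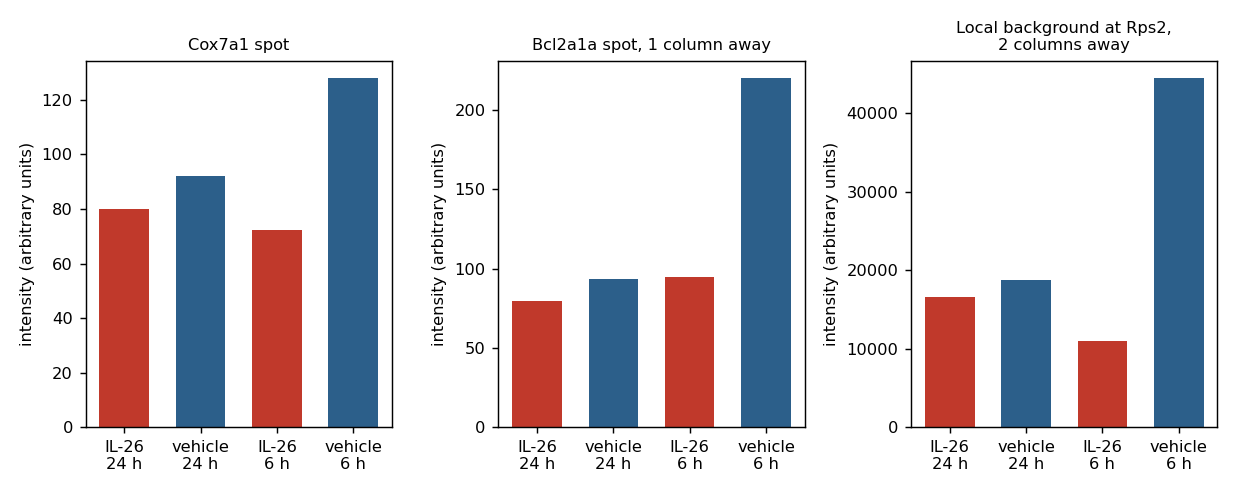
Bars give, for each array (horizontal axis), the spot intensity of Cox7a1 (left), the spot intensity of Bcl2a1a in the next column (middle) and the local background around Rps2 2 columns away (right), in arbitrary units; red bars are IL-26 and blue bars vehicle, 1 array each. In all 3 panels the vehicle 6 h array is the highest (128, 220 and 44456).

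Genes that work with the members were counted in lists of the same pathway. Of 10 detected subunits, electron carriers and associated factors outside the naming rule, 3 rose and 1 fell at 24 h against 6 h (30% and 10%). The shares were 14.5% and 14.4% of all genes, and 21% and 22.1% of the brighter ones. Higd2a, a complex IV and supercomplex factor, rose by 0.68 (1.599-fold, adjusted p = 6.03e-07). Cyct, the testis form of cytochrome c, was the gene of these lists that passed for IL-26, at 0.44 (adjusted p = 3.62e-07): it read 5.84 with IL-26 and 5.77 in vehicle at 24 h, and 6.54 with IL-26 and 5.74 in vehicle at 6 h, so that a dim spot was high on the IL-26 6 h array alone.

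The factors that assemble the respiratory complexes leaned the other way in time. Of 43 detected, 4 rose and 13 fell (9.3% and 30.2%, against 14.5% and 14.4% of all genes and 21% and 22.1% of the brighter ones). The median effect was -0.09, against 0.07 for the subunits. Coa7, Cox10 and Coa6, which take part in building complex IV, had effects of -0.80, -0.72 and -0.62, and the complex I assembly factors Ndufaf8 and Tmem126b had -0.61 and -0.56 (adjusted p between 1.46e-10 and 5.55e-06). Their 24 h arrays all lay below their 6 h arrays. The difference between assembly factors and subunits was not tested.

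Of 17 enzymes of the tricarboxylic acid cycle and pyruvate dehydrogenase, 8 rose and 2 fell (47.1% and 11.8%), with a median effect of 0.18. The shares were 14.5% and 14.4% of all genes, and 21% and 22.1% of the brighter ones. Idh3g and Idh3b, subunits of the NAD-dependent isocitrate dehydrogenase, rose by 0.53 and 0.50 (adjusted p = 0.000101 and 0.000315). Of 19 detected regulators of mitochondrial biogenesis, 3 rose and 2 fell (15.8% and 10.5%, median -0.05). Among 18 import proteins and inner membrane carriers, 1 rose and 4 fell (5.56% and 22.2%, median -0.06). The share of carriers that fell was near the 22.1% of the brighter genes. Tomm70a, an import receptor, reached 1.52-fold between 24 h and 6 h with IL-26 without passing the test (adjusted p = 0.0637). For IL-26, 0 of the genes of the last 4 lists passed.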

How the data were processed

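The authors deposited, for each of 4 arrays, the scanner's median spot intensity in the Cy5 channel with a local background intensity, not normalized, and processed values that are each spot minus the blank mean, scaled to a common array median. Scanner and software settings are not given in the sources used here. Spot intensities were corrected with limma's nec (normexp fitted on the 384 blank spots, offset 50), put on the log2 scale and quantile normalized over gene spots. Spots of a probe and then probes of a gene were averaged; probes were named through the platform table and RefSeq (GRCm38.p6). Genes above the mean plus 2 SD of the blanks on at least 1 array were kept, 18372 of 19316. On the arrays, 32.3% to 52.1% of the 96 negative control spots also passed that limit, so a detected dim gene may carry little signal. The number of arrays limits the precision.

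An additive limma model (limma 3.58.1, R 4.3.3; time plus treatment; eBayes with the prior variance trended on intensity; Benjamini-Hochberg) was fitted over all detected genes; prior degrees of freedom were 63.8. On simulated data with known changes the fit recovered most of the largest changes, which exceeded any difference seen in the members. The share recovered at the size of the members' differences is not given here. The fit made more false calls than its nominal rate, mostly among the dimmer genes. Fold thresholds of 1.5 were applied to differences of single arrays, with no test. Alternatives covered the background correction, offset, scaling, the authors' deposited values, filters, probe choice, member definition and variance prior; leaving out spots within 2 columns of a very bright spot (intensity above 10000) and a trend on the rank of intensity were added after seeing the data. Named members were core subunits, isoform families, the 3 highest and lowest for time in each complex, those past the test for IL-26 or 1.5-fold, and the 3 highest and lowest for IL-26 at each time; listed non-members were named only when 1.5-fold or past for IL-26. Ndufa4 and Ndufa4l2 were counted in complex IV. Members and gene lists were chosen with earlier results of these data known.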

Additional observations from a re-analysis of the deposited data

Results flagged for a closer look

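Cox7a1, the muscle form of a complex IV subunit, differed between 24 h and 6 h in opposite directions in the treatments: 0.17 in cells given IL-26 and -0.51 in vehicle (log2, 24 h minus 6 h). Each value is a difference of 2 single arrays, and the difference between the treatments was not tested. Both the vehicle difference and the IL-26 effect at 6 h include the vehicle 6 h array, on which this spot and the spots beside it were high.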

How the results depend on the processing

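Counts of members called for time were 14 higher and 7 lower. The higher count was 9 with undetected genes kept (10.7%, against 12% of all genes). The lower count was 11 with median scaling (13.3%, against 13.3%) and 4 without the trend on intensity (4.82%, against 9.19%). Without the trend, 17 members were higher (20.5%, against 9.58%), and with the authors' values 19 were (22.9%, against 15.5%). Both counts were 0 with local background subtraction. There, 9 members passed as higher with IL-26 (10.8%, against 1.39% of all genes) and 0 as lower. Median scaling also moved the split of all genes to 21% higher and 13.3% lower, against 14.5% and 14.4%, and gave 10 members higher. The 1 member lower with IL-26 became 0 with undetected genes kept, without the trend, and without spots within 2 columns of a very bright spot, which leaves Cox7a1 out. Local background subtraction also turned the time effect of Atp5b to -0.1714, Atp5md to -1.038, Ndufa5 to 0.1228, Ndufv1 to -1.654 and Uqcr11 to -0.1714; the cause was not tested. Of the 22 calls for single members, the other 17 were lost under that setting; 11 were lost without the trend, 8 with undetected genes kept, 5 with an offset of 200, 4 with median scaling, 2 with an offset of 16, and 1 each with the authors' values, the brightest probe and the rank trend, with no change of direction. Median member differences moved as follows, with the median of all genes in that setting in brackets. For IL-26 at 24 h they became -0.0498 (0.0094) with median scaling and 0.0125 (-0.0408) with local background. For IL-26 at 6 h they became -0.0549 (0.0082) with median scaling, -0.0192 (-0.0437) with the authors' values and 0.2011 (-0.0762) with local background. For time with IL-26 they became 0.1115 (-0.027) with the authors' values and 0.0392 (0.0054) with local background. For time in vehicle the value was -0.0262 (-0.0273) with local background. No paired analysis was possible because no replicate numbers pair the arrays; the additive fit itself compares times within treatments and treatments within times. Leaving out an array leaves no residual degree of freedom, so no such fit was run. Signal close to the blanks limits the dim members, above all Uqcrq and Cox7b2, and also Cox8b and Cox6a2, which carry calls for time.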
